A study of Homo sapiens with 16 samples.

Results

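The sites described here are peaks of Myc chromatin immunoprecipitation in the U2OS-CHRONO line that overlapped a BMAL1 peak in that line and none in parental U2OS. There were 333 of them among the 2487 peaks of the Myc list, 13.4% (Wilson 95% interval 12.1 to 14.8%). They were chosen by overlap of at least 1 bp with a BMAL1 peak of 1 or more of the 6 U2OS-CHRONO lists and with no peak of the 6 U2OS lists. That overlap is therefore a description of the sites and not a result about them. Beside it, 49.5% of all 20968 BMAL1 regions, merged over the 12 lists, had peaks in U2OS-CHRONO alone, and so did 23.8% of the 1326 that a Myc peak overlapped. The other Myc peaks fell into 973 with BMAL1 in both lines, 1104 with no BMAL1 peak and 77 with BMAL1 in U2OS only.

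U2OS-CHRONO, labelled U2OS-CHR, and U2OS are human osteosarcoma cells. BMAL1 libraries of both lines came from cells given 200 nM dexamethasone, a glucocorticoid that brings the clocks of a culture into step, and collected at times labelled 0, 4, 8, 12, 16 and 20 h. Time 0 h was set 4 h ahead of the low point of a PBMAL1::Luc reporter rhythm, so the labels are not hours since dexamethasone. The Myc library came from U2OS-CHRONO and had no time or treatment label, and the series design names its target Myc-CHRONO. The labels do not say how the line was made, whether it is 1 clone, or what carries the Myc tag. They give the antibody as Myc, and tagged CHRONO and the cell's own MYC protein cannot be told apart from this list. There was 1 library per line and time and 1 Myc library, so nothing below could be tested across replicates, and intervals cover counting error alone.

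BMAL1 is a transcription factor that pairs with CLOCK, binds E-box sequences in DNA and activates genes of the circadian clock. The gene CIART encodes CHRONO, which represses the activity of BMAL1 and CLOCK and is itself under the control of the clock. In U2OS cells the clock can be followed for days after a pulse of dexamethasone, which is why the line is widely used for circadian work.

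The letters of the canonical E-box could be read where a site fell on an annotated gene start. Of the 333 sites, 115 overlapped a promoter, the stretch from 250 bases before to 50 bases after a RefSeq start, and 14 of them held CACGTG inside the Myc peak. Its median distance from the peak centre at those 14 sites was 25.2 bp. The stretches below are the bases shared by the Myc peak and the promoter at 6 of these sites, read 5′ to 3′ on the strand of the gene, with CACGTG in capitals, from the RefSeq table of GRCh38.p14. CD2BP2 and UBA1 are shown for BMAL1 peaks at 6 and 5 times, and ARHGAP12 and BLOC1S1 for a pair of E-boxes in 1 peak. Such pairs were rare at the sites. Of the 137 promoters they overlapped, 3 (2.19%) held 2 or more CACGTG, with overlapping promoters of ARHGAP12 counted separately. At Myc peaks with BMAL1 in both lines it was 44 of 308 (14.3%). MRTO4 is shown as a gene of the MYC target list and SIAH2 as a site at the edge of the rule. BLOC1S1 encodes a subunit of complexes that position lysosomes.
CD2BP2, chr16:30355335-30355471, minus strand: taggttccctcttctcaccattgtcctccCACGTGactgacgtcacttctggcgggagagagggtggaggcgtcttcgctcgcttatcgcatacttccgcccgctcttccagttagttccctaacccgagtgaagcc
UBA1, chrX:47190597-47190723, plus strand: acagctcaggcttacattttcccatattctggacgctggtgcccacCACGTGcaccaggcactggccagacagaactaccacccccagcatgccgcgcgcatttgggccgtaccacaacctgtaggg
ARHGAP12, chr10:31928820-31929055, minus strand: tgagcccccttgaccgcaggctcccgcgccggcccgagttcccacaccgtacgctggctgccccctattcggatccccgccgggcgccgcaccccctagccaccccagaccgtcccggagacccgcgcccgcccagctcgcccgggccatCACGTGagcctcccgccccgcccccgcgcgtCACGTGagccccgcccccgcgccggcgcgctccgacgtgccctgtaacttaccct
BLOC1S1, chr12:55715980-55716095, plus strand: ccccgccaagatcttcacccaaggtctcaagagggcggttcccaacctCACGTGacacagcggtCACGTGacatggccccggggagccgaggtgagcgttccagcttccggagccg
MRTO4, chr1:19251727-19251854, plus strand: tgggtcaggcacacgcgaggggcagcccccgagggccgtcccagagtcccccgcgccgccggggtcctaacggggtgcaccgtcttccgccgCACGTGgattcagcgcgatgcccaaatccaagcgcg
SIAH2, chr3:150763161-150763310, minus strand: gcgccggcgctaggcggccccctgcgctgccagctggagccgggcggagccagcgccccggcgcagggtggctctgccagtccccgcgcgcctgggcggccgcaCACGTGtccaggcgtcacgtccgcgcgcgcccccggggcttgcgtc

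Of the 115 sites on a promoter, 25 overlapped one that held CACGTG. At the others no CACGTG stood anywhere in the promoter. PHB1 and HMGB1 are shown as examples, the first for its BMAL1 peaks at 5 times and the second for its high Myc score.
PHB1, chr17:49414998-49415132, minus strand: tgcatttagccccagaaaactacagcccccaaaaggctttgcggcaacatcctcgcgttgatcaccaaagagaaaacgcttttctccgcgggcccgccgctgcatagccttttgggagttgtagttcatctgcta
HMGB1, chr13:30617679-30617847, minus strand: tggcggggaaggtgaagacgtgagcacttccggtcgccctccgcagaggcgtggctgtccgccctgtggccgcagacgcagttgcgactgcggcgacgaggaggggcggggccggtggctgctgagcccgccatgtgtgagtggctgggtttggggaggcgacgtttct

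The 333 sites overlapped 137 distinct promoter windows, some of them alternative starts of 1 gene, and 27 of these windows held CACGTG. That share, 19.7% (Wilson 95% interval 13.9 to 27.2%), lay between those of the neighbouring classes. It was 48.7% (43.2 to 54.3%) of 308 windows at Myc peaks with BMAL1 in both lines and 5.50% (3.46 to 8.63%) of 309 at Myc peaks without BMAL1. Of all 22077 promoters of the table, 8.32% held the motif. Of 48 windows at Myc peaks with BMAL1 in U2OS only, 10.4% did, with a wide interval (4.53 to 22.2%) that overlaps that of the U2OS-CHRONO-only sites.

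Counting only the bases shared by peak and promoter kept the order of the U2OS-CHRONO-only, both-lines and no-BMAL1 classes. CACGTG stood there in 15 of 137 pairs of peak and promoter at the U2OS-CHRONO-only sites (10.9%, 6.75 to 17.3%), against 133 of 313 with BMAL1 in both lines (42.5%, 37.1 to 48.0%) and 12 of 313 with none (3.83%, 2.21 to 6.58%). With BMAL1 in U2OS only it stood in 5 of 48 pairs (10.4%, 4.53 to 22.2%), close to the share at the U2OS-CHRONO-only sites. For the first 3 classes the median number of shared bases was 145, 177 and 142, so the stretches of the both-lines class were longer. The gap also stood among Myc peaks scoring under 70, with 21.3% (14.2 to 30.6%) of windows against 47.7% (39.2 to 56.3%) in both lines. This score bound was chosen after the data were seen.

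Within the 333 sites the motif was most frequent where BMAL1 had been seen at 4 to 6 times, with little difference below that. It stood in 7 of 18 windows (38.9%, 20.3 to 61.4%) at sites with BMAL1 at 4 to 6 times, in 10 of 56 (17.9%) at 2 or 3 times and in 10 of 63 (15.9%, 8.86 to 26.8%) at 1 time. With 18 windows in the first group its interval reaches down to 20.3%, below the upper bound of 26.8% at 1 time. Overlapping windows of ARHGAP12 that hold the same pair of E-boxes were counted separately among the 7. The interval treats such windows as independent. It also holds the 48.7% of the both-lines class. In that class 77.5% of Myc peaks had BMAL1 at 4 or more U2OS-CHRONO times, against 18.6% of the sites. The motif shares of the 2 classes were not compared at equal numbers of times. Without a Myc peak, U2OS-CHRONO-only BMAL1 regions reached 1409 windows, of which 13.8% (12.1 to 15.7%) held the motif, and that interval overlaps the one at the sites with a Myc peak. The 2 shares rest on unlike regions, since these windows were reached by merged BMAL1 regions and those of the sites by Myc peaks.

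The gap between the U2OS-CHRONO-only and both-lines classes was fewer percentage points for each of the other motifs than for CACGTG, and each of them was also less frequent at the U2OS-CHRONO-only sites. Percentage points depend on how common a motif is. In proportion, TGACTCA differed about as much as CACGTG, at 2.92% against 7.14% and 19.7% against 48.7%, though few windows held TGACTCA. The variant CACGCG stood in 27.0% of the 137 windows (20.3 to 35.0%), against 35.1% (29.9 to 40.5%) in both lines, 18.4% (14.5 to 23.1%) with no BMAL1 and 14.2% of all promoters. CACGTT, an E-box relative read as AACGTG on the other strand, stood in 8.03% (4.54 to 13.8%), against 14.3% in both lines, 6.80% with no BMAL1 and 5.43% of all promoters. CATGTG stood in 7.30% of the 137 windows, against 7.47% in both lines and 8.96% of all promoters. The GC box letters CCCGCCC, bound by SP and KLF factors, stood in 51.8% (43.5 to 60.0%), against 60.7% in both lines and 42.3% of all promoters. TGACTCA, the AP-1 element, stood in 2.92% (1.14 to 7.27%), against 7.14% (4.76 to 10.6%) in both lines and 4.02% of all promoters. CCAAT, bound by NF-Y, stood in 29.9% (22.9 to 38.1%), against 39.9% (34.6 to 45.5%) in both lines and 34.7% of all promoters. The median GC content of the windows was 63.7%, against 66.0% in both lines and 62.3% in all promoters. Each motif was searched on both strands, and overlapping matches of different motifs each counted.

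**Figure D1:**
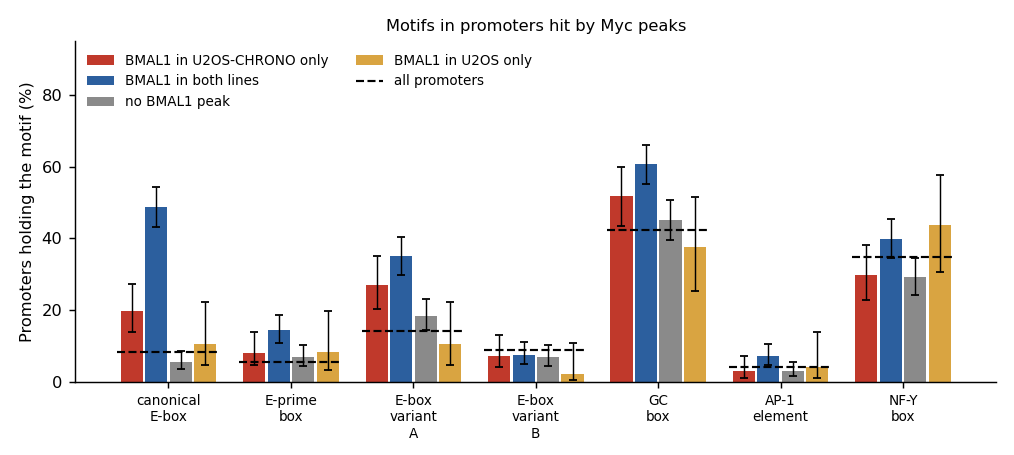
Share of promoter windows holding each motif (vertical axis, percent) for the 4 classes of Myc peak, with Wilson 95% intervals, and for all promoters (dashed). From left to right stand the canonical E-box, 3 E-box relatives, the GC box, the AP-1 element and the NF-Y box, with the letters given above. For CACGTG the U2OS-CHRONO-only class stands at 19.7%, the both-lines class at 48.7% and all promoters at 8.32%.

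BMAL1 was most often called at the sites at 4 and 16 h and least often at 8 h. Of the 333 sites, 147 had a BMAL1 peak at 0 h, 176 at 4 h, 29 at 8 h, 56 at 12 h, 194 at 16 h and 151 at 20 h. The count was lowest at 8 and 12 h, when the U2OS-CHRONO lists were shortest with 2429 and 3919 peaks, and highest at 16 h, when the list was longest with 9391. As a share of the sites this ran from 8.71% at 8 h to 58.3% at 16 h, against 55.2% and 91.5% of the Myc peaks with BMAL1 in both lines. The part of list length in this course was not tested, and read depth is unknown. As a share of each list, the BMAL1 peaks at the sites were between 1.19% at 8 h and 2.62% at 0 h.

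Where a site had a BMAL1 peak, that peak was of middle rank in its list. The median score percentile within the U2OS-CHRONO list was 45.0 at 0 h, 49.7 at 4 h, 40.7 at 8 h, 55.8 at 12 h, 48.2 at 16 h and 46.4 at 20 h. The peaks at Myc sites of both lines had medians between 81.9 at 8 h and 90.0 at 16 h. At Myc sites with BMAL1 in U2OS only, BMAL1 peaks also ranked lower than that in their own U2OS lists. Their medians lay between 20.0 at 0 h and 44.5 at 12 h, with no peak at 8 h. These ranks are a description, since the sites were chosen by these same lists. The centres of the BMAL1 and Myc peaks lay a median of 37.0 to 65.0 bp apart over the 6 times. The BMAL1 peaks there were 275 to 418 bp wide in the median, close to the 274 to 396 bp of their whole lists, against 378 to 622 bp at Myc sites of both lines.

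**Figure D2:**
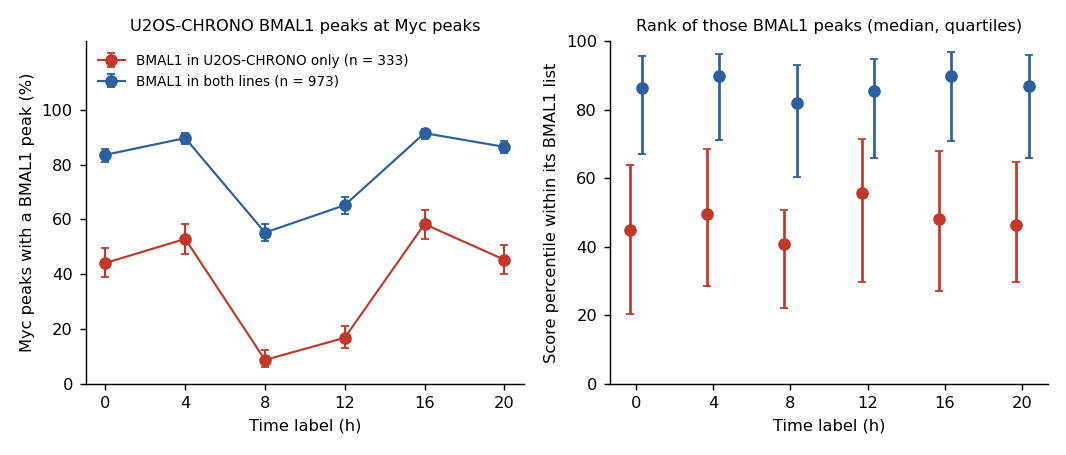
Left, share of Myc peaks with a U2OS-CHRONO BMAL1 peak at each time (percent, Wilson 95% intervals), for the U2OS-CHRONO-only sites and for those with BMAL1 in both lines. Right, median score percentile of those BMAL1 peaks within their list, with quartiles. Both classes are lowest at 8 h, at 8.71% and 55.2%, and the U2OS-CHRONO-only peaks rank lower at every time.

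Most sites had BMAL1 at 1 or 2 of the 6 times. A BMAL1 peak was found at 1 time in 134 sites (40.2%), at 2 in 89, at 3 in 48, at 4 in 27, at 5 in 21 and at 6 in 14 (4.20%). Among Myc peaks with BMAL1 in both lines, 49.8% had one at all 6 U2OS-CHRONO times and 6.27% at 1. The single times were mostly 16 h with 44 sites, 4 h with 37, 0 h with 28 and 20 h with 22, while 12 h was the single time of 3 sites and 8 h of none. Of the 29 sites with a peak at 8 h, 26 also had one at 16 h and 24 had peaks at 4 or more times.

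**Figure D3:**
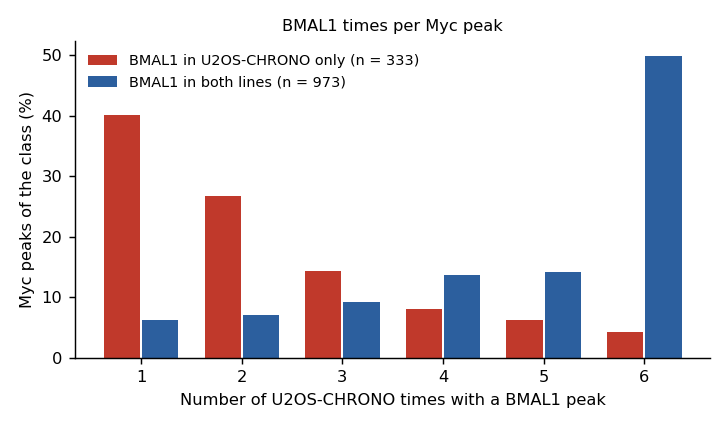
Share of Myc peaks (vertical axis, percent of the class) by the number of U2OS-CHRONO times with a BMAL1 peak. The U2OS-CHRONO-only sites pile up at 1 time (40.2%) and the both-lines sites at 6 times (49.8%).

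In the Myc list itself the sites were of middle score and missing from the top. Their deposited scores ran from 50.1 to 157 with a median of 60.4, against a median of 69.7 and a highest value of 700 in both lines, a median of 54.3 with no BMAL1 and a median of 58.5 over all Myc peaks. None of the 50 highest Myc peaks was among them, and the first ranked 64. They made up 4 of the peaks ranked 51 to 100, 15 of the 131 ranked 101 to 231, 32 of the 269 ranked 232 to 500, 87 of the 500 ranked 501 to 1000 and 195 of the 1487 ranked 1001 to 2487. In that lowest range their share was 13.1%, beside 13.4% of the whole list. Their median width was 164 bp, against 195 bp in both lines and 144 bp with no BMAL1. Myc peaks with BMAL1 in U2OS only were close to the sites, with a median score of 59.3 and a median width of 168 bp. By number of BMAL1 times the median Myc score differed little, with values of 60.4 at 1 time, 59.7 at 2 or 3 and 62.1 at 4 to 6.

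**Figure D4:**
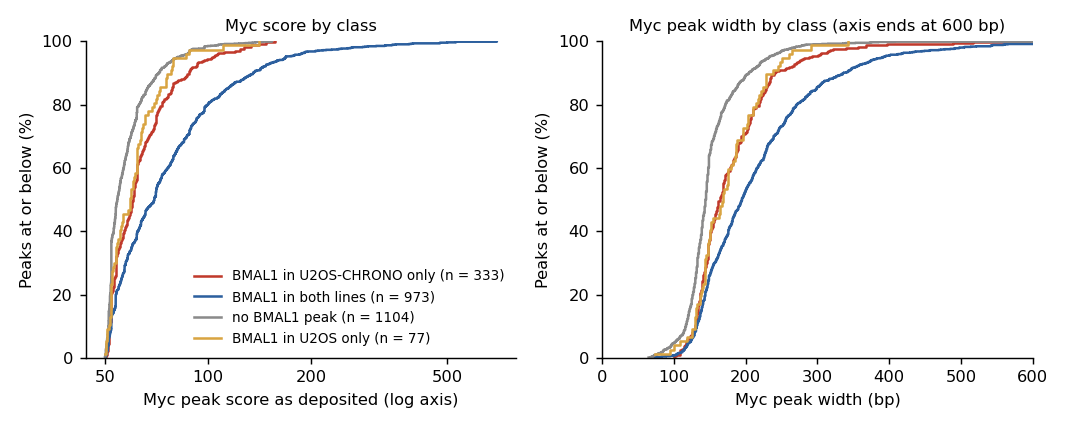
Cumulative share of Myc peaks (percent) by deposited Myc score on a log axis (left) and by peak width in bp (right, the axis ends at 600 bp) for the 4 classes. The U2OS-CHRONO-only sites lie between the both-lines peaks and the peaks with no BMAL1, with median scores of 60.4, 69.7 and 54.3. The class with BMAL1 in U2OS only lies close to them, with a median score of 59.3.

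Gene starts and ends were the most frequent position of the sites. Of the 333, 155 (46.5%, 41.3 to 51.9%) were within 1 kb of the start or end of a protein-coding gene, 84 (25.2%) were elsewhere inside a gene and 94 (28.2%) lay between genes. Here and below, gene end means either end of a gene, its start included. The gene-end share was 39.0% (35.9 to 42.1%) in Myc peaks with BMAL1 in both lines, an interval that overlaps, and 30.0% (27.4 to 32.8%) in those with none, one that does not. It was 49.4% (38.5 to 60.3%) with BMAL1 in U2OS only and 36.3% in all Myc peaks. With chromosome 8 not used, an annotated start lay within 1 kb of 144 of 318 sites (45.3%, 39.9 to 50.8%), against 36.1% (33.0 to 39.2%) in both lines. With BMAL1 in U2OS only it was 50.7% (39.5 to 61.8%), so a share above both lines was not particular to the sites. By number of BMAL1 times the gene-end share was 47.0% at 1 time, 49.6% at 2 or 3 and 38.7% (27.6 to 51.2%) at 4 to 6, with overlapping intervals.

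A Myc peak went with gene ends among BMAL1 regions too. Of the U2OS-CHRONO-only BMAL1 regions with a Myc peak, 146 of 316 (46.2%, 40.8 to 51.7%) lay at a gene end, against 1914 of 10071 (19.0%, 18.3 to 19.8%) without one. Among the BMAL1 regions of both lines the shares were 40.6% (37.5 to 43.8%) with and 23.1% (21.9 to 24.3%) without a Myc peak.

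**Figure D5:**
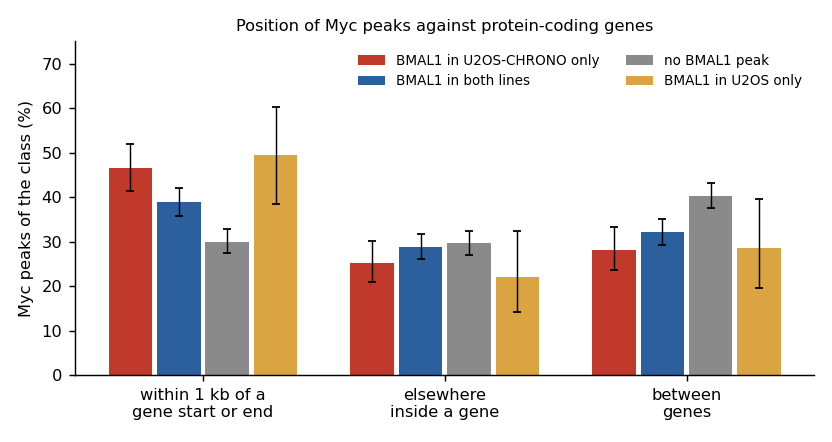
Share of Myc peaks (vertical axis, percent of the class, Wilson 95% intervals) within 1 kb of a gene start or end, elsewhere inside a gene, or between genes, for the 4 classes. The U2OS-CHRONO-only class stands at 46.5% for gene starts and ends, and the class with no BMAL1 peak at 30.0%.

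The 155 sites at gene ends touched 196 protein-coding genes, 0.977% of the 20056 in the table, against 437 genes or 2.18% for Myc peaks with BMAL1 in both lines. Both sets held 9 genes in common. None of 21 core clock genes was among the 196, while 9 of the 21, among them NR1D1, NR1D2, DBP, PER3, CRY1 and CRY2, had a Myc peak with BMAL1 in both lines. The 27 kinases, ubiquitin ligases and cofactors of the clock found in the table, the 20 clock output genes and the 24 glucocorticoid-induced genes also had none, and had 1, 3 and 2 in the both-lines class. With 0.977% of all genes at the sites, lists this short would hold few or none, so the zeros here and below say little. The rule also removed every Myc peak with BMAL1 in U2OS, which sets the 2 classes apart in advance. Over 14 lists, 6 of 407 genes (1.47%) were at a U2OS-CHRONO-only site, beside 0.977% of all genes.

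Of those 6, ENO1 was 1 of 23 glycolysis genes and MRTO4, a ribosome assembly factor, 1 of 35 MYC target and ribosome biogenesis genes. RPL4 was 1 of 74 cytosolic ribosomal protein genes and CCND3, a G1 cyclin, 1 of 40 cell cycle genes. ATP6V1A and ATP6V1C1, subunits of the proton pump that acidifies lysosomes, were 2 of 36 lysosome and autophagy genes. None of the 22 MYC, MAX and partner genes, the 24 p53 and DNA damage genes or the 32 respiratory chain genes was among them. Of the cell type markers, 0 of 13 osteoblast genes and 0 of 20 genes of other tissues had a site. Peak lists hold no expression values, so the identity of the cells could not be checked.

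At 11 gene-end sites BMAL1 was called at 5 or 6 U2OS-CHRONO times. TREX1 encodes a DNA exonuclease, PCBD1 a pterin dehydratase and HNF1 cofactor, and CD2BP2 a protein that binds CD2 and the spliceosome, and these 3 had peaks at all 6 times. At CD2BP2 the BMAL1 percentiles were 84.3, 71.6, 42.9, 81.6, 87.4 and 85.3 from 0 to 20 h. The BMAL1 rank there was in the upper part of the list at each time but 8 h. The Myc peak, with a score of 62.06 and rank 971, lay 27 bp from the gene start and held the E-box shown above. At PCBD1 the percentiles were 83.7, 72.7, 64.2, 74.3, 43.9 and 88.8, lowest at 16 h, with a Myc score of 70.79 at chr10:70887830-70888047, inside the gene and 518 bp from its start. At TREX1 they were 81.5, 56.0, 40.7, 22.1, 57.9 and 42.5, lowest at 12 h, with a Myc score of 72.08 at chr3:48466144-48466289. A U2OS BMAL1 peak lay 158 bp from that site, which puts it near the edge of the rule.

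The other 8 sites had BMAL1 at 5 times. ENO1 encodes enolase, a glycolytic enzyme. The ENO1 site inside the gene, chr1:8877977-8878131 with a Myc score of 87.07, had BMAL1 percentiles of 68.5 at 0 h, 89.9 at 4 h, 50.7 at 8 h, 86.6 at 16 h and 65.8 at 20 h, and no peak at 12 h. PHB1, a prohibitin of the inner mitochondrial membrane, also lacked a peak at 12 h and ranked low at 8 h, with percentiles of 80.4, 78.4, 3.21, 84.4 and 31.7 at 0, 4, 8, 16 and 20 h. SCMH1, a polycomb group protein, and TMEM184A, a transmembrane protein, were likewise missing at 12 h alone. UBA1, the main ubiquitin-activating enzyme, had percentiles of 76.9, 86.0, 78.1, 75.3 and 66.1 at 0, 4, 12, 16 and 20 h and was missing at 8 h alone, as were NCAM1, a cell adhesion protein, and AUTS2, a regulator of neural development. AKR1A1, an aldehyde reductase, was missing at 4 h alone. The time without a peak was thus 12 h at 4 of these sites, 8 h at 3 and 4 h at 1. Their Myc scores ran from 52.05 at UBA1 to 87.07 at ENO1.

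The 10 gene-end sites with the highest Myc scores had BMAL1 at 1 to 3 times. USP9X, a deubiquitinase, had a Myc score of 140.67, the highest of the gene-end sites and rank 96 in the list, with BMAL1 at 4, 16 and 20 h at percentiles of 61.0, 25.2 and 71.2. HMGB1, a chromatin protein, and USPL1 shared a site with a Myc score of 133.25 and BMAL1 at 4, 16 and 20 h at percentiles of 46.0, 78.6 and 33.1. RCOR3, of the REST corepressor family, had a Myc score of 124.11 and BMAL1 at 0, 4 and 16 h at percentiles of 73.7, 57.9 and 45.5. These 3 sites had no BMAL1 peak at 8 or 12 h.

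At 4 of the remaining high-scoring sites BMAL1 was called at 1 time only. STAT3, a transcription factor of cytokine signalling, had a Myc score of 106.27, and its only BMAL1 peak, at 20 h, scored 50.02 at percentile 0.0509, the bottom of its list. The BMAL1 peak of PPP1R37, a protein phosphatase regulator, was at 4 h and percentile 2.08. The second ENO1 site, 507 bp before the gene start with a Myc score of 93.13, had BMAL1 at 16 h and percentile 1.35. INTS1, of the Integrator complex, had it at 0 h and percentile 49.0. Apart from INTS1, these sites were chosen on a single BMAL1 peak near the lowest score of 1 list. The others were KIAA0586 and TIMM9, which share a site with BMAL1 at 0, 4 and 16 h, TMED1 and C19orf38 with BMAL1 at 4 and 20 h, and IPO4, a nuclear importer, and TM9SF1 with the same times.

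The other genes of the lists had BMAL1 at 1 to 3 times. MRTO4 and EMC1 share a site with BMAL1 at 16 h at percentile 23.9, and RPL4 and ZWILCH one with BMAL1 at 4 h at percentile 35.3. ATP6V1A and NAA50 share one with BMAL1 at 4 and 20 h at percentiles of 32.9 and 40.4, and ATP6V1C1 had the same times at 57.5 and 61.3. CCND3 had BMAL1 at 4, 12 and 20 h at percentiles of 37.9, 16.5 and 66.7. None of these 5 sites had BMAL1 at 0 or 8 h.

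Away from gene ends, 11 of the 14 sites with BMAL1 at all 6 times lay inside genes or between them. They were chosen for that count, with their values seen. Inside genes were sites in ST3GAL3, LCT, OR2V2, ELFN1 and GAB3. The site in ST3GAL3, a sialyltransferase, had BMAL1 percentiles of 76.0, 93.7, 82.9, 85.2, 91.8 and 92.3 from 0 to 20 h, with a U2OS BMAL1 peak 692 bp away. Between genes, the site at chr20:63138924-63139143 had percentiles of 91.8, 88.8, 57.4, 83.7, 93.3 and 88.6, and its nearest U2OS peak was 52331 bp away. A pair of Myc peaks at chr7:6306512-6306619 and chr7:6306720-6306919 lay under the same BMAL1 peaks. In all, 6 of the 333 sites lay within 1 kb of another, as 3 pairs.

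The median distance from a site to the nearest U2OS BMAL1 peak was 41079 bp, and 247 sites had none within 10 kb. These distances are a description, since the rule removed every Myc peak that a U2OS BMAL1 peak touched. No distance is given here for the other classes. A U2OS BMAL1 peak lay within 1 kb of 38 sites and within 100 bp of 7. ATXN2 is a case just inside. Its Myc peak at chr12:111599230-111599401 had U2OS-CHRONO BMAL1 peaks at percentiles of 98.5, 98.8, 96.1 and 97.8 at 0, 4, 16 and 20 h, and the nearest U2OS peak lay 14 bp away. SIAH2, a ubiquitin ligase, had a U2OS peak 52 bp away. Just outside, 204 Myc peaks of both lines had BMAL1 at a single U2OS time, 83 of them at 4 h and 73 at 20 h, and 90 of the 204 had it at 4 or more U2OS-CHRONO times.

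Membership changed with list length and threshold. U2OS-CHRONO lists held 2429 to 9391 BMAL1 peaks and U2OS lists 337 to 6012. With the lists of each time cut to equal length, 223 of the 333 sites (67.0%) were kept, and the class with BMAL1 in U2OS only grew to 136 Myc peaks. The U2OS list was the shorter at every time, so only U2OS-CHRONO lists were cut. By construction, sites could then only be lost and the U2OS-only class could only grow. With BMAL1 peaks of score 100 or more alone, a single bound for all lists although their scores may not be on 1 scale, 285 Myc peaks met the rule but 104 of the 333 (31.2%) were among them, and 181 others came in. CACGTG then stood in 41.1% of their promoter windows.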

How the data were processed

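Peak lists of 13 libraries were used, and the 3 input libraries were not analysed here. The score in each list is the authors' own value, as deposited. Its definition is not stated, the lowest was 50.0, and scores were compared within the list they came from, except in an alternative with 1 score bound for all BMAL1 lists. Build hg38, HOMER 4.10.3, bedtools and MACS 1.4.2 appear in the submitters' processing notes without roles. Aligner, depth and peak-calling control: not given in the sources used here. Starts in the lists were read as 0-based and are printed 1-based.

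Peaks overlapped when they shared 1 bp, with the same counts from bedtools 2.31.1 for 12 of 12 BMAL1 lists. Genes (20056, protein-coding) came from the RefSeq table of GRCh38.p14, the assembly of hg38, and promoters (300 bases, 15843 of these genes, no chromosome 8) from its sequence table. Of 412 list symbols 411 were found. Percentiles are ranks of scores within a list. Wilson 95% intervals were computed with SciPy 1.17.1. No significance test was run, since each condition had 1 library. The functions were tested on simulated peaks.

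Members, lists and settings were chosen with earlier results of these data known. Genes were named by rule: gene-end sites with BMAL1 at 5 or 6 times, the 10 gene-end sites with the highest Myc score, and genes of the 14 lists. Other sites, such as ATXN2, SIAH2, ARHGAP12, BLOC1S1 and those away from genes, were chosen after their values were seen.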

Additional observations from a re-analysis of the deposited data

How the results depend on the processing

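The number of sites was 339 and 342 when the overlap had to reach 50% of the smaller peak or when centres had to lie 500 bp apart or less, 295 when a U2OS peak within 1 kb also removed a site, and 298 to 380 with each time left out. It was 19 with a Myc score of at least 100, 199 with BMAL1 at 2 or more times and 62 at 4 or more, fewer by construction. The gene-end share stayed between 41.8% and 48.0% under 14 alternatives, from 44.5% to 47.3% with each time left out. It was 36.8% with a Myc score of at least 100, 38.7% at 4 or more times, and, by the construction of the window, 57.1% with 5 kb and 20.7% with no margin. The CACGTG share of 19.7% ran from 19.7% to 25.5% with each time left out, and was 27.0% at equal list lengths. It was 41.1% with a BMAL1 score of at least 100, 38.9% at 4 or more times, 10% with a Myc score of at least 100 (1 of 10 windows) and 10.9% within the shared bases alone, and the cause was not tested. A promoter lay whole inside a peak in 1 case, without the motif (0%). Recomputing the CACGTG share under the membership alternatives, within the shared bases and under a score of 70 was added after seeing the data. Depth is unknown, so the absence of a U2OS peak does not show the absence of binding. No paired analysis was possible because these results come from no test: the shared numbers match the lines by time, and the sites were chosen by that very difference between lines.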

Other observations

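All 333 sites lay on chromosomes 1 to 22 and X. Their share of the Myc peaks of a chromosome was lowest on chromosome 18, with 3 of 65 (4.62%, Wilson 95% interval 1.58 to 12.7%), and highest on X, with 6 of 20 (30.0%, 14.5 to 51.9%). On chromosome 1, which held the most, it was 44 of 251 (17.5%, 13.3 to 22.7%).

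The base beside the E-box was looked at after the sequences had been seen. Of the 27 promoter windows with CACGTG at U2OS-CHRONO-only sites, 15 (55.6%, 37.3 to 72.4%) held CACGTGA on either strand, against 106 of 150 (70.7%, 62.9 to 77.4%) with BMAL1 in both lines and 53.2% of the 1836 promoters with CACGTG in the table. The first interval holds both of the other values.

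Of the 77 Myc peaks with BMAL1 in U2OS only, 1 had it at 4 or more U2OS times. Of the 333 sites, 62 had it at 4 or more U2OS-CHRONO times. Both counts are a description, since these overlaps defined the classes. The U2OS list at 8 h held 337 peaks, and no Myc peak with BMAL1 in U2OS only had one there. U2OS lists were the shorter at every time, and at equal list lengths the classes with BMAL1 in U2OS-CHRONO only and in U2OS only, at any number of times, held 223 and 136 Myc peaks, against 333 and 77 at full length. The cut could move these counts only in that direction.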
